A study of Mus musculus with 6 samples.

Results

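Lipc, Mamdc2, Itgbl1, Wdr72, Ptpn20, Sstr2 and Gm48898 are 7 genes that lay lower in the rib cages of Foxc1 and Foxc2 mutant mouse embryos together with the bone genes, although none of them is a classic marker of bone. They were chosen because all 3 mutant libraries lay below all 3 control libraries, so their own levels in the 2 groups are given here as a description, with no test. All 7 symbols matched a gene ID among the 55487 in the count table, and all 7 were among the 26596 genes kept for testing, each with 10 or more counts in the 6 libraries together. Sp7, the transcription factor needed to make osteoblasts, and Dmp1, a phosphoprotein of the mineralizing matrix made by osteocytes and late osteoblasts, are set beside them in every library.

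The libraries are RNA-Seq of whole rib cages at 16.5 days post coitum (dpc), dissected and freed of connective tissue. The 3 mutants (embryos E423, E433 and E440) carried the Col2-cre transgene and are labelled Col2-cre;Foxc1-/-;Foxc2-/-. The 3 controls (embryos E420, E434 and E435) are labelled wild type, and since the dams of the study were homozygous for floxed Foxc1 and Foxc2, every embryo of such a cross inherits a floxed copy of both genes. Col2-cre is driven by the type II collagen promoter, so the deletion takes place in chondrocyte progenitors and their descendants and not in every cell of the rib cage, and the mice were kept on a mixed background. Littermates were compared throughout the study according to its methods, but no source used here ties an embryo to a litter, so litter could not enter a test.

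Ribs form by endochondral ossification. Mesenchyme condenses into cartilage, the cartilage cells enlarge, and osteoblasts from the perichondrium and the cartilage lay down bone that osteocytes and osteoclasts then inhabit and remodel. A rib cage library therefore averages over cartilage, bone, tendon, vessels and whatever muscle, skin or fat remained, and fewer cells of a type cannot be told apart from less RNA per cell. The 7 genes belong to unrelated families. Lipc encodes hepatic lipase, an enzyme secreted mainly by the liver that hydrolyses the triglycerides and phospholipids of lipoproteins. Mamdc2 encodes a secreted proteoglycan with MAM domains. Itgbl1 encodes a secreted protein whose EGF-like repeats resemble the stalk of integrin beta chains but which has no membrane anchor. Sstr2 is a G protein-coupled receptor for somatostatin. Wdr72 is an intracellular WD repeat protein best known because its loss disturbs the maturation of tooth enamel. Ptpn20 is a non-receptor protein tyrosine phosphatase, and Gm48898 is annotated as a long intergenic noncoding RNA (lincRNA).

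The genes are spread over 5 chromosomes, and none shares an exon base with another annotated gene. In GRCm38, Lipc (ENSMUSG00000032207.10) lies on the minus strand of chromosome 9 from 70798128 to 70952226, and Wdr72 (ENSMUSG00000044976.17) on the plus strand of the same chromosome from 74110356 to 74283308. Itgbl1 (ENSMUSG00000032925.16) lies on the plus strand of chromosome 14 from 123659971 to 123975618, and Ptpn20 (ENSMUSG00000021940.10) on the plus strand of chromosome 14 from 33589207 to 33640754. Sstr2 (ENSMUSG00000047904.6) spans 113619342 to 113626028 on the plus strand of chromosome 11, inside an intron of Slc39a11, which is read from the other strand. Gm48898 (ENSMUSG00000112441.1) spans 8291024 to 8293694 on the minus strand of chromosome 12, and Mamdc2 (ENSMUSG00000033207.7) spans 23302609 to 23448442 on the minus strand of chromosome 19.

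The sequence before the start site is shown for the 4 of the 7 genes found in the RefSeq promoter table (GRCm38.p6), because these genes were lower in the same libraries, with Dmp1 as the bone gene beside them. Each runs 5′ to 3′ on the strand of the gene, from 250 bases before the RefSeq start up to the start or to the first base that GENCODE annotates as an exon of the gene. Capitals mark a match to 1 of the 5 motifs searched on both strands, which were TGTGGT (the core bound by Runx factors), GTAAACA (forkhead factors), GGGCGG (the GC box bound by Sp factors), TAATTA (homeodomain factors) and TATAAA (the TATA box). Lipc has 2 starts in the table, and each is also the first base of a GENCODE transcript, and Dmp1 has 2 as well.
Lipc, upstream start, chr9:70952227-70952471, minus strand: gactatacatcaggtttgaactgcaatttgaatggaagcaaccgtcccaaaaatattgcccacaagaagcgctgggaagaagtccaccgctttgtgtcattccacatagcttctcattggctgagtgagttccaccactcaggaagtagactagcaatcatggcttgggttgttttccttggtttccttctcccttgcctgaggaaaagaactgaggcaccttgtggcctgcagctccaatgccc
Lipc, downstream start, chr9:70934809-70935058, minus strand: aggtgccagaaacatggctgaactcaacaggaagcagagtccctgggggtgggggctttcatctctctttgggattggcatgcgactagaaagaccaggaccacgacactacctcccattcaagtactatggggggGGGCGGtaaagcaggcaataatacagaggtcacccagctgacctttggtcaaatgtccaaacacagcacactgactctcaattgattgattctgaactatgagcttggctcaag
Itgbl1, chr14:123659890-123659970, plus strand: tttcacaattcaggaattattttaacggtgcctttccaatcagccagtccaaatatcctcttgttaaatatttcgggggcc
Ptpn20, chr14:33589020-33589206, plus strand: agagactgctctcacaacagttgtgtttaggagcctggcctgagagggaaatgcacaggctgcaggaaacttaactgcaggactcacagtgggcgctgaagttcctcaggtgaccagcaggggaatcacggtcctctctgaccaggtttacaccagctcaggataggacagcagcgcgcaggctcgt
Sstr2, chr11:113619077-113619326, plus strand: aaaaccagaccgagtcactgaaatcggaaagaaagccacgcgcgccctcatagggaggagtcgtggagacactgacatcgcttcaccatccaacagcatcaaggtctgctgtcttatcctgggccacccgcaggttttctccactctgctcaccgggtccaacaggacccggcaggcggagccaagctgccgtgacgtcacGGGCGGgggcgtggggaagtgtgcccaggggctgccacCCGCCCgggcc
Dmp1, upstream start, chr5:104197325-104197574, plus strand: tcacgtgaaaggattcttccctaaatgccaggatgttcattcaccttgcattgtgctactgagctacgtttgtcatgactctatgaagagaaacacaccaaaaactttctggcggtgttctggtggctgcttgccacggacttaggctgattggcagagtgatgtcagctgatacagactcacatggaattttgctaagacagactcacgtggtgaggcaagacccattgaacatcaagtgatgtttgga
Dmp1, downstream start, chr5:104202367-104202612, plus strand: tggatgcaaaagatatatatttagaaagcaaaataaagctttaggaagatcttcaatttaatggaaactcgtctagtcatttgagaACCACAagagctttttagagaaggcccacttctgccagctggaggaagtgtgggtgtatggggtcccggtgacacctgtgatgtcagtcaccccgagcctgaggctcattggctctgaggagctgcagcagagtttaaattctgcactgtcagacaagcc

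Over the full 250 bases, Sstr2 held 2 GC boxes, which begin 49 and 11 bases before the start, in a window of 63.6% G and C. The downstream Lipc start held 1 GC box and the upstream one none of the 5 motifs. Itgbl1 held a GC box and a TAATTA, which begin 26 and 77 bases before the RefSeq start in the stretch that GENCODE places in the first exon and that is not printed, and the marked motifs did not overlap one another. No window of these 4 genes held the Runx core, the forkhead motif or the TATA box in these letters. The GC box was present in 32.7% of all 32851 promoter windows of the table, the Runx core in 14.1%, the TATA box in 12.4%, TAATTA in 4.84% and the forkhead motif in 3.17%. Of the 2 Dmp1 windows, the downstream one held 1 Runx core, 164 bases before the start, and the upstream one none of the 5 motifs.

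Gm48898 is a single-exon transcript of 2671 bases, and its longest open reading frame beginning with ATG has 58 codons. Its first 200 bases (GENCODE, GRCm38, chr12:8293495-8293694, minus strand) are shown as the identity of a transcript that has no other name.
Gm48898: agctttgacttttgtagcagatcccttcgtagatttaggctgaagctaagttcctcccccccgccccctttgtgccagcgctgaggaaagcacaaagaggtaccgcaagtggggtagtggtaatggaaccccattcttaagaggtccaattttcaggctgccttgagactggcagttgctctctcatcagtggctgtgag

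Library totals ran from 37853988 to 47794799 counts, where both ends of a fragment were counted, and levels below are in CPM, counts relative to library size after scaling by the trimmed mean of M values (TMM). The 6 libraries did not divide by genotype alone. Control E434 and mutant E433 held far more cartilage RNA than the others: the summed level of 14 chondrocyte markers was 27956 CPM (sum over the list) in E434 against 2147 and 2043 in the other controls, and 10381 in E433 against 744 and 721 in the other mutants. Keratinocyte markers ran the other way within each group, at 17.4 CPM in E434 and 3068 in E433 against 5058 to 27239 in the other 4 libraries. E433 also held 650.2 CPM of 10 hepatocyte markers, against 30.0 to 52.2 in every other library. Within these groups E420 and E435, and E423 and E440, were close to each other, with a mean chi-square of 5.42 and 2.27 per gene on fragments, where sampling noise alone gives a mean of 1. The targeted genes were lower in every library labelled mutant, with Foxc1 at 23.1 to 36.9 CPM in controls and 3.51 to 9.61 CPM in mutants, and Foxc2 at 1.99 to 4.83 and 0.65 to 1.14 CPM. The bone list, 16 markers of osteoblasts and osteocytes that include Sp7 and Dmp1, had a median log2 fold change of -1.23. In 14 of the 16 the mutants lay below all controls, beside 8.21% of all tested genes. Other lists were lower in the mutants as well: all 8 osteoclast markers lay below all controls (median log2 fold change -1.11), with sums of 599 to 623 CPM in controls and 298, 120.2 and 290 CPM in E423, E433 and E440, and 3 of 5 tendon markers did (median -1.01). The chondrocyte list had a median of -1.29, but 0 of its 14 markers lay below all controls. The median of 6 hypertrophic chondrocyte markers was -0.99, with 2 below all controls.

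The background for the rule is that all 3 mutants lay below all 3 controls in 2184 of the 26596 tested genes (8.21%), and the 7 genes were picked from these. Across all genes, edgeR's quasi-likelihood test called 8 genes lower in mutants (0.0301%) at an adjusted p under 0.1 and a log2 fold change of -1 or lower. Lipc and Mamdc2 are 2 of those 8, and the other 5 of the 7 genes were not past the limit on the adjusted p. Since the same contrast chose them, nothing is read from these counts. The count of 8 depends on which libraries enter: it was 0 without E420, E435, E423 or E440, 9 without E434, 353 without E433 and 648 without both E434 and E433. Among the 103 tested genes with a fitted fold change at least as low as that of Mamdc2 and a control mean at least that of Ptpn20, 61 had groups that did not overlap. Of the 7 genes Mamdc2 had the smallest gap, with a lowest control of 20.2 CPM over a highest mutant of 10.1 CPM, a ratio of 1.99. Among the 103 genes Zfp125 lay nearest the limit inside it, at a ratio of 1.07, and Syt16 nearest outside it, with 0.927 over 1.02 CPM, a ratio of 0.908.

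**Figure D1:**
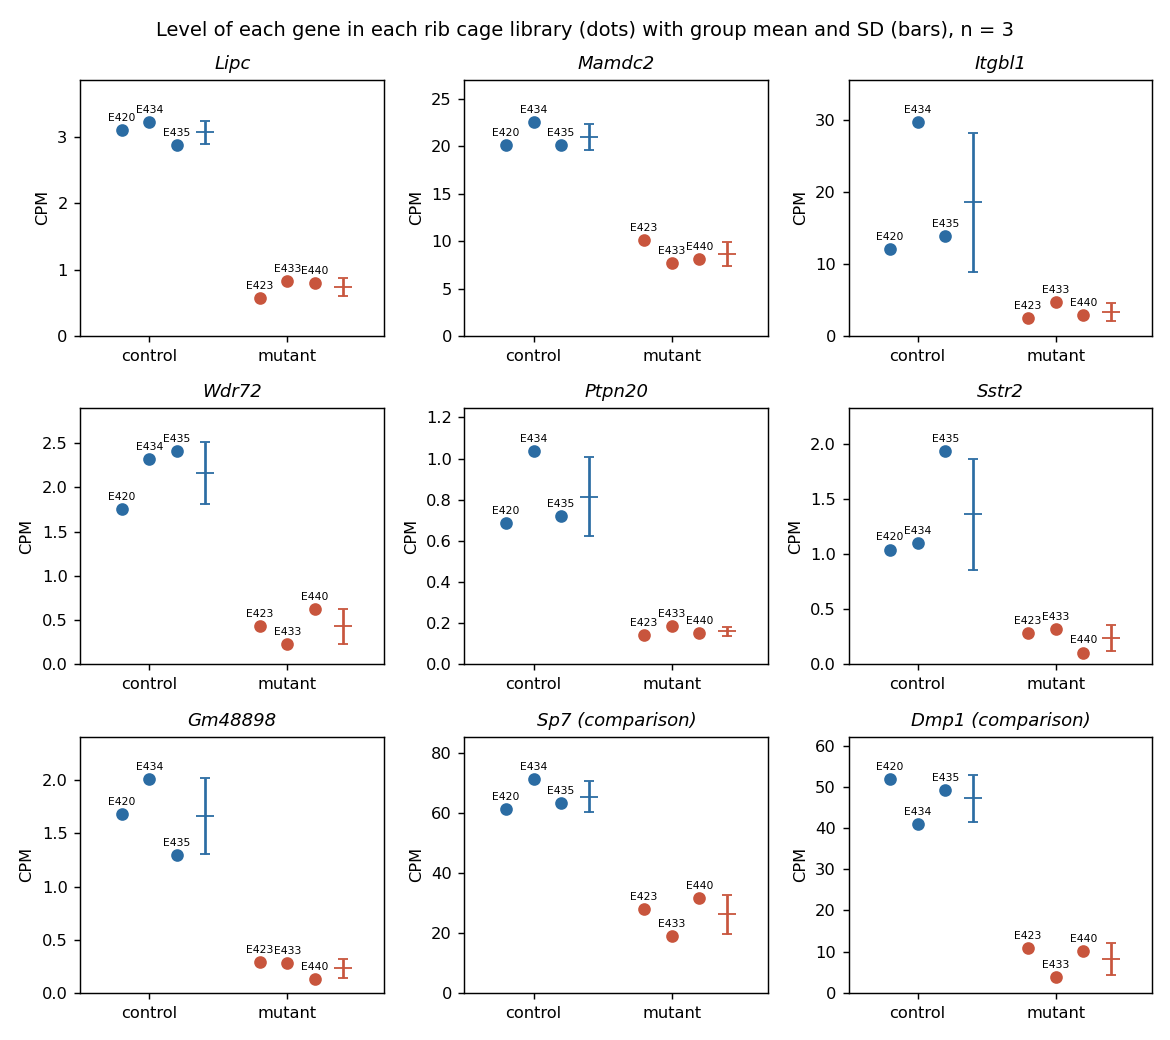
Level of each of the 7 genes and of Sp7 and Dmp1 in CPM (vertical axis, from 0) in the 3 control (blue) and 3 mutant (red) libraries, with the embryo written at each dot and the group mean ± SD as a bar. In every panel the groups are apart, which is the rule that chose the 7 genes; Itgbl1 has the widest spread among the controls, with E434 at 29.7 CPM among controls at 12.1 and 13.9.

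The secreted proteins come first. Lipc had 3.11 CPM in E420, 3.22 in E434 and 2.89 in E435, and 0.577 in E423, 0.835 in E433 and 0.802 in E440. The controls were tightly grouped, at 3.07 ± 0.170 CPM (SD, n = 3), and the mutants were at 0.738 ± 0.140 CPM (SD, n = 3), 24.0% of the control mean. The fitted log2 fold change was -2.05 (SE 0.201). Lipc is a known product of hepatocytes. E433, the library with the most hepatocyte RNA, had 16 Lipc fragments (exact 95% interval 9.15 to 26) against 11 and 15 in the other mutants and 53 to 68 in controls. Albumin (Alb), the main plasma protein made by hepatocytes, was at 319.8 CPM in E433 and at 7.94 to 22.5 CPM elsewhere. Within each group Lipc in CPM was highest in the library with the highest hepatocyte sum, E434 among controls and E433 among mutants. Neither order was resolved. On fragments, the log2 ratio to the others of the group had counting intervals of -0.26 to 0.64 for E434 and -0.67 to 1.28 for E433. The part of hepatocyte RNA in the Lipc level was not tested.

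The log2 ratio of Lipc to Sp7 was -4.39 ± 0.09 (SD, n = 3) in controls and -5.05 ± 0.56 in mutants, and the 2 groups overlapped. The log2 ratio of Lipc to Dmp1 was -3.92 ± 0.24 in controls and -3.28 ± 1.03 in mutants, also overlapping, and E433, where Dmp1 was lowest, gave the highest ratio. In percent of the control mean, Lipc was at 18.8, 27.2 and 26.1% in E423, E433 and E440, while Sp7 was at 42.7, 28.8 and 48.6% and Dmp1 at 22.9, 8.05 and 21.7%.

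Of 8 genes of the lipase family, 7 were tested and 0 were called by edgeR at an adjusted p under 0.1 (0.0902% of all tested genes were, in either direction), with 2 at an unadjusted p under 0.05 (10.6% of all) and 2 called by DESeq2 (3.57% of all). Lipoprotein lipase (Lpl), which frees fatty acids from lipoproteins in fat and muscle, lay above all controls in the mutants, at 131.6 CPM in controls and 217 CPM in mutants (log2 fold change 0.72, adjusted p = 0.380 from edgeR and 0.0280 from DESeq2). All 6 adipocyte markers also lay above all controls in the mutants, beside 1810 of all 26596 tested genes. They summed to 132 to 145 CPM in controls and 203 to 603 CPM in mutants. The part of fat in the Lpl level was not tested. Lipi, another lipase of the family named after its values were seen, differed in the direction of Lipc, with 2.51 CPM in controls and 1.0 CPM in mutants, the mutants below all controls (log2 fold change -1.32, adjusted p = 0.407 from edgeR and 0.0717 from DESeq2). Liph, a phospholipase, had 5.71 CPM in controls and 14.4 CPM in mutants with overlapping groups (adjusted p = 0.677 from edgeR). It was lowest of its group in E434 (0.353 CPM) and E433 (4.64 CPM), as the sum of the keratinocyte markers was. The part of keratinocyte RNA in the Liph level was not tested. Of 10 lipoprotein handling genes, 9 were tested and 0 were called by edgeR and 2 by DESeq2, with a median log2 fold change of -0.11. The highest of them in controls were Apoe, an apolipoprotein carried by many tissues (193.5 CPM in controls, 213 in mutants, log2 fold change 0.14), and Lrp1, an endocytic receptor (190.7 and 168 CPM, log2 fold change -0.18).

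Mamdc2 was the most abundant of the 7 genes and the one with the smallest difference. Controls E420, E434 and E435 had 20.2, 22.5 and 20.2 CPM, and the mutant levels were 10.1 in E423, 7.75 in E433 and 8.15 in E440, or 20.9 ± 1.36 and 8.68 ± 1.27 CPM (SD, n = 3), with a fitted log2 fold change of -1.27 (SE 0.137). Sp7 had a like difference, with 61.4, 71.2 and 63.4 CPM in controls and 27.9, 18.8 and 31.7 CPM in mutants and a fitted log2 fold change of -1.32. The log2 ratio of Mamdc2 to Sp7 was -1.64 ± 0.03 (SD, n = 3) in controls and -1.56 ± 0.35 in mutants, a difference of 0.07 with overlapping groups. Against Dmp1, which had 51.8, 40.9 and 49.1 CPM in controls and 10.8, 3.81 and 10.3 CPM in mutants, Mamdc2 was less reduced: the log2 ratio was -1.17 ± 0.27 in controls and 0.20 ± 0.72 in mutants, and these groups did not overlap. E433 was the lowest mutant for Mamdc2 as it was for Sp7 and Dmp1.

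Of 14 other genes with MAM domains, 12 were tested, 0 were called by edgeR (2 at an unadjusted p under 0.05, 1 called by DESeq2), and the median log2 fold change was -0.07. Nrp2, a coreceptor for semaphorins and VEGF, had 163.5 CPM in controls and 110.2 CPM in mutants, with the mutants below all controls (log2 fold change -0.57, adjusted p = 0.381 from edgeR and 0.0624 from DESeq2). Npnt, nephronectin, an extracellular ligand of integrin alpha 8, had 160.5 and 158 CPM (log2 fold change -0.02).

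Itgbl1 had the widest spread of the 7 genes among the controls. It had 12.1 CPM in E420, 29.7 in E434 and 13.9 in E435, and 2.43 in E423, 4.78 in E433 and 2.86 in E440. E434 and E433, the libraries with the most cartilage RNA, were the highest of their groups. They were also the highest for Lipc and Ptpn20, where counting error left the order unresolved. The Itgbl1 group means were 18.6 ± 9.65 and 3.36 ± 1.25 CPM (SD, n = 3), with a fitted log2 fold change of -2.47 (SE 0.433). On fragments, E434 exceeded the mean of the other controls by 1.19 on the log2 scale (exact 95% counting interval 1.03 to 1.36), and E433 exceeded the other mutants by 0.86 (0.45 to 1.27). The intervals cover counting error only and compare these libraries, not conditions. The chondrocyte list differed far more between the same libraries, by a median of 3.94 in E434 and 3.80 in E433, the tendon list by 0.44 and 0.47, Foxc1 by 0.64 and 1.44, and Foxc2 by 0.89 and 0.71, all on the log2 scale, and the part of cartilage or tendon in the Itgbl1 level was not tested.

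Sp7 and Dmp1 lay on the other side within the mutants, with a log2 fragment ratio of E433 to the other mutants of -0.71 and -1.44. The bone list was divided: its median log2 ratio for E433 was -0.95 in CPM. Yet its sum was highest in E433, at 14760 CPM against 14246 in E423 and 13754 in E440. Runx2 was also highest there, at 19.4 CPM against 14.7 and 15.9. The log2 ratio of Itgbl1 to Sp7 was -1.93 ± 0.58 (SD, n = 3) in controls and -2.97 ± 0.87 in mutants, and that to Dmp1 was -1.46 ± 0.87 and -1.21 ± 1.34, both overlapping. Of the 8 integrin beta genes, all were tested and 0 were called by edgeR or DESeq2 (3 at an unadjusted p under 0.05), with log2 fold changes from -0.64 to 0.85. Itgb1, the common beta chain of many integrins, had 756 CPM in controls and 645 CPM in mutants (log2 fold change -0.23), and Itgb5, a vitronectin receptor chain, had 174 and 144 CPM (log2 fold change -0.27, mutants below all controls, adjusted p = 0.437 from edgeR).

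**Figure D2:**
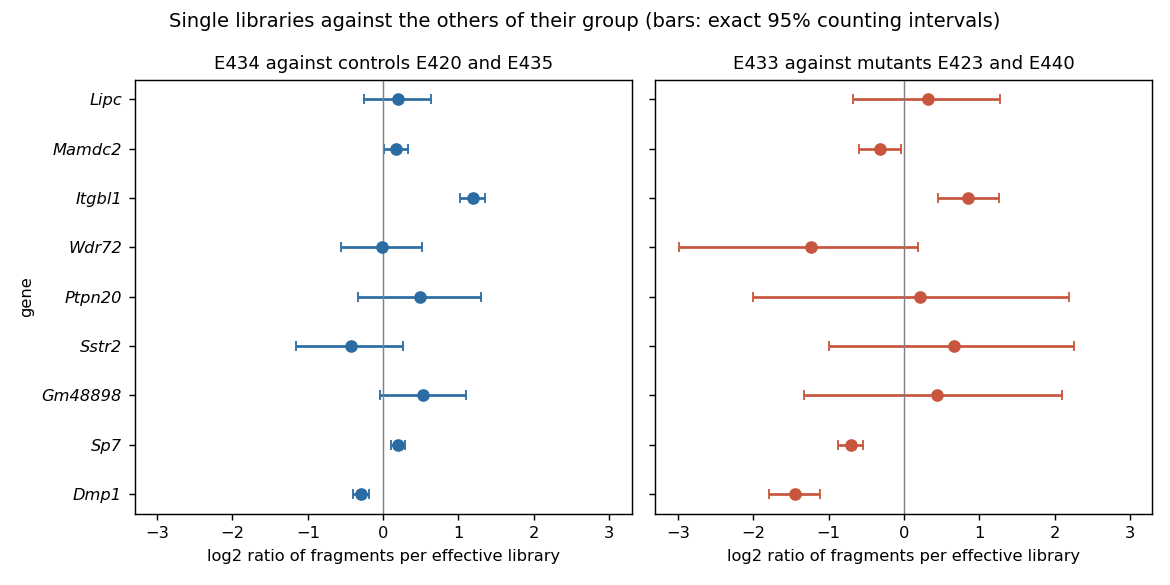
Log2 ratio of RSEM fragments per effective library (horizontal axis) of E434 to controls E420 and E435 (left, blue) and of E433 to mutants E423 and E440 (right, red) for the 7 genes, Sp7 and Dmp1, with exact 95% counting intervals as bars. Itgbl1 is above 0 in both panels, while Sp7, Dmp1 and Mamdc2 are below 0 in E433; the intervals of the genes with few fragments are wide.

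The receptor Sstr2 had 1.04 CPM in E420, 1.10 in E434 and 1.94 in E435, and 0.289 in E423, 0.325 in E433 and 0.108 in E440. E435 stood above the other controls and E440 below the other mutants. The means were 1.36 ± 0.50 and 0.241 ± 0.116 CPM (SD, n = 3), 17.7% of the control mean, with a fitted log2 fold change of -2.50 (SE 0.465). Behind these values were 20, 25 and 45 fragments in controls and 6, 7 and 3 in mutants, and 3 fragments have an exact 95% interval of 0.619 to 8.77, so the order of the mutants is not resolved at this depth. The log2 ratio to Sp7 was -5.59 ± 0.52 in controls and -6.58 ± 1.02 in mutants (SD, n = 3), and that to Dmp1 was -5.12 ± 0.47 and -4.82 ± 1.35, both overlapping.

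The ligands and other receptors of the somatostatin system were scarce and did not differ detectably. Of 6 genes 5 were tested and 0 were called by edgeR or DESeq2, with 0 at an unadjusted p under 0.05 and log2 fold changes from -0.39 to 0.14. Sstr1 was the highest in controls, at 0.925 CPM against 0.706 CPM in mutants (log2 fold change -0.39, SE 0.570). Somatostatin itself (Sst) had 0.552 CPM in controls and 0.603 CPM in mutants (log2 fold change 0.14, SE 1.64). The error of Sst allows a difference as large as that of Sstr2.

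Of the intracellular proteins, Wdr72 had 1.76 CPM in E420, 2.32 in E434 and 2.41 in E435, and 0.433 in E423, 0.232 in E433 and 0.629 in E440. The means were 2.16 ± 0.354 and 0.431 ± 0.198 CPM (SD, n = 3), with a fitted log2 fold change of -2.32 (SE 0.366). The mutants lay in the same order as for Sp7, with E433 lowest and E440 highest. The 9, 5 and 15 fragments behind E423, E433 and E440 set a counting interval of -2.98 to 0.18 on the log2 ratio of E433 to the other mutants, which includes 0. The log2 ratio of Wdr72 to Sp7 was -4.90 ± 0.20 (SD, n = 3) in controls and -5.84 ± 0.27 in mutants, and these groups did not overlap. Its ratio to Dmp1 was -4.43 ± 0.38 in controls and -4.08 ± 0.38 in mutants, which overlapped. Wdr72 stood lower in the mutants relative to Sp7 (log2 difference -0.94, or -0.38 in TPM), while against Dmp1 the difference of 0.35 was smaller than the spread within either group (1.01 in TPM).

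The 4 genes related to Wdr72, its close homologue Wdr7 and members of the complex through which Wdr7 regulates the vacuolar proton pump, were all tested and 0 were called by edgeR or DESeq2, with log2 fold changes from -0.28 to 0.19. Dmxl1 had 69.4 CPM in controls and 65.5 CPM in mutants (log2 fold change -0.09), and Wdr7 25.6 and 21 CPM (log2 fold change -0.28). Of 15 genes of enamel formation, 10 were tested and 1 was called by edgeR. It was Ambn, which encodes the enamel matrix protein ameloblastin, also made in bone, and which is among the genes the study itself picked from these libraries. Ambn had 26, 21 and 39 counts in E420, E434 and E435 and 2, 1 and 1 counts in E423, E433 and E440 (adjusted p = 0.0956 from edgeR and 0.000174 from DESeq2, between 3.37e-05 and 1.0 over 14 alternatives), a call that was lost without E420, E434, E435, E423 or E440. The call was also lost with RSEM expected counts. On fragments pooled over the embryos of each group, 42 in controls against 1 in mutants gave a 41.3-fold ratio (exact 95% counting interval 7.01 to 1668). That interval covers counting error only, leaves out the spread between embryos and is no test of the groups. The other 9 tested enamel genes were not called, and Amelx, Enam, Odam, Klk4 and Mmp20 had too few counts to be tested.

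Ptpn20 was the scarcest of the 7 genes. It had 0.687 CPM in E420, 1.04 in E434 and 0.722 in E435, and 0.144 in E423, 0.186 in E433 and 0.152 in E440. The means were 0.815 ± 0.193 and 0.161 ± 0.0220 CPM (SD, n = 3), with a fitted log2 fold change of -2.33 (SE 0.315). E434 and E433 were the highest of their groups, but this order was not resolved. On fragments, the log2 ratio to the others of the group had counting intervals of -0.33 to 1.30 for E434 and -2.00 to 2.19 for E433. With the group means removed, the correlation of Ptpn20 with the cartilage collagen gene Col2a1 was 0.924 over the 6 libraries. That of Itgbl1 was 0.961, and those of the remaining members lay between -0.544 (Wdr72) and 0.588 (Gm48898). The Ptpn20 value rests on these few fragments, and the part of cartilage in the Ptpn20 level was not tested. The mutant libraries held 3, 4 and 4 fragments, so their close agreement is narrower than counting error would make it and says nothing of precision. The log2 ratio to Sp7 was -6.27 ± 0.20 in controls and -6.96 ± 0.53 in mutants (SD, n = 3), and that to Dmp1 was -5.80 ± 0.49 and -5.20 ± 0.99, both overlapping. Of 16 other non-receptor tyrosine phosphatases all were tested and 0 were called by edgeR (3 at an unadjusted p under 0.05, 1 called by DESeq2), with a median log2 fold change of -0.05. Ptpn11, which encodes the phosphatase SHP2 of growth factor signalling, had 216 CPM in controls and 228 CPM in mutants (log2 fold change 0.08), and Ptpn13 had 74.1 and 71.2 CPM (log2 fold change -0.06).

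**Figure D3:**
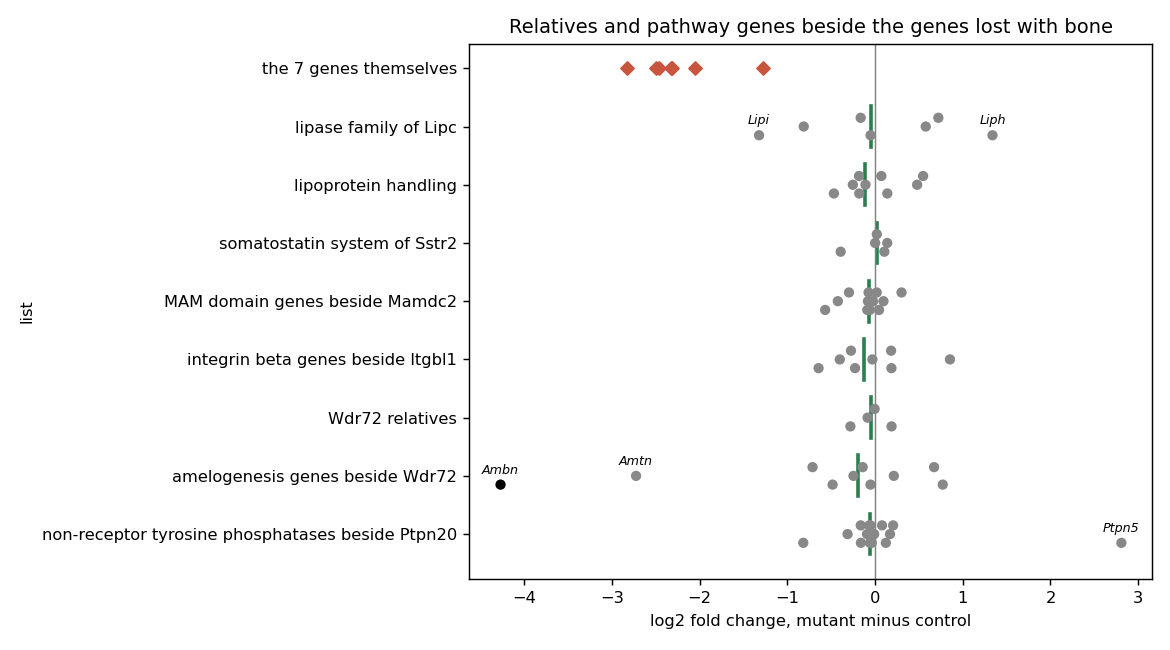
Log2 fold change, mutant minus control (horizontal axis), of the tested genes of each family or pathway list (rows), with the 7 genes that the rule chose as red diamonds on top, a green line at each list's median, and black for an adjusted p under 0.1 (edgeR), grey otherwise. Ambn is the single black dot; every list median lies between -0.19 and 0.02.

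Over all family and pathway lists, 81 genes were written down, 71 were tested, 1 was called lower and 0 higher by edgeR, and 7 were called by DESeq2 (3.57% over all tested genes). At an unadjusted p under 0.05 there were 14, beside 10.6% over all tested genes. In 14 of the 71 the mutants lay below all controls, and in 7 above, against 8.21% and 1810 of 26596 over all tested genes. The median log2 fold change of the 71 was -0.06, beside 0.01 over all tested genes and -2.33 for the 7 genes that the rule chose.

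Gm48898 had the largest difference of the 7. It had 1.68 CPM in E420, 2.01 in E434 and 1.30 in E435, and 0.289 in E423, 0.278 in E433 and 0.130 in E440. The means were 1.66 ± 0.355 and 0.232 ± 0.0888 CPM (SD, n = 3), 14.0% of the control mean, with a fitted log2 fold change of -2.83 (SE 0.359). It was the single member with a lower fitted fold change than Dmp1, whose log2 fold change was -2.51 (SE 0.389), a gap within their errors. The libraries held 33, 47 and 30 fragments in controls and 6, 6 and 3 in mutants. The log2 ratio to Sp7 was -5.28 ± 0.25 in controls and -6.58 ± 0.84 in mutants (SD, n = 3) with no overlap, and that to Dmp1 was -4.81 ± 0.45 and -4.82 ± 1.16, a difference of -0.02.

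**Figure D4:**
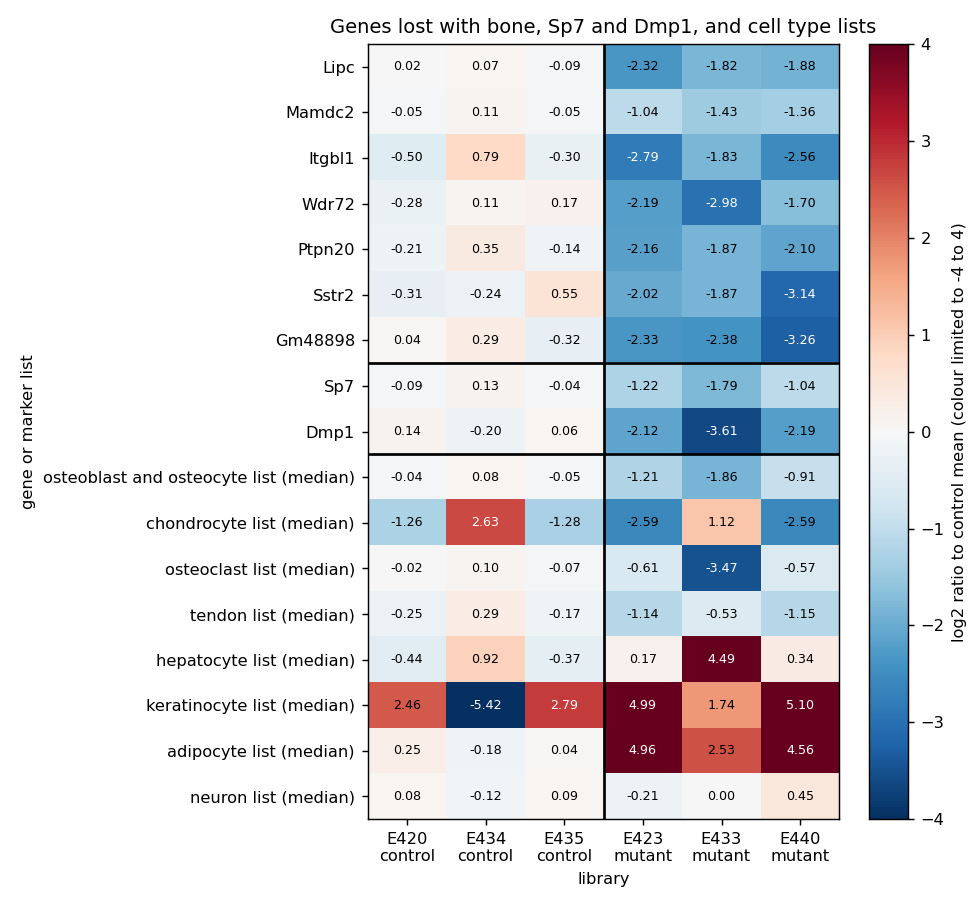
Log2 ratio to the control mean (number and colour, blue lower, red higher, colour limited at 4) of the 7 genes, Sp7 and Dmp1, and of the median of 8 cell type marker lists, in each library (columns). Itgbl1 is highest in E434 (0.79) among controls and in E433 (-1.83) among mutants, as the chondrocyte list is (2.63 and 1.12), while Wdr72 is lowest in E433 (-2.98), as Sp7 (-1.79) and Dmp1 (-3.61) are.

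Levels were compared between genes per length of transcript. In TPM, the length-scaled unit of the RSEM tables of the authors, controls had 8.38 ± 0.723 for Mamdc2, 6.31 ± 3.40 for Itgbl1, 3.3 ± 0.970 for Lipc, 0.947 ± 0.279 for Sstr2, 0.900 ± 0.245 for Gm48898, 0.603 ± 0.0603 for Wdr72 and 0.423 ± 0.0702 for Ptpn20 (SD, n = 3). In this order Lipc and Sstr2 were apart in all controls, as were Wdr72 and Ptpn20, and the other neighbours overlapped. Sp7 and Dmp1 were at 30.4 ± 2.99 and 27.5 ± 3.01 TPM, above every one of the 7. In mutants the 7 genes ran from 0.0733 TPM (Ptpn20) to 3.36 TPM (Mamdc2). The TPM of Lipc is the least certain, because the average transcript length assigned to it by RSEM ran from 755 to 1828 bases between libraries, and its E434 value relative to the other controls was 0.69 on the log2 scale in TPM against 0.11 in CPM.

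The 7 genes were also compared with all genes of at least 1 CPM on average by the Pearson correlation of log2 CPM over the 6 libraries. The libraries fall into 2 groups, share their depth and their tissue mixture, and the genes were chosen for the gap between groups, so high values are given as an order of likeness with no test. The gene most like Wdr72 among 16567 was Sp7 itself (r = 0.994), followed by Smim14 (0.992) and the vitamin D receptor Vdr (0.988), with Dmp1 at place 22. Mamdc2 was most like Tent2 (0.997), Ostn (0.997), a peptide hormone of bone and muscle, and Gm6929 (0.995), with Sp7 at place 80 and Dmp1 at place 94.

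For the other members Sp7 and Dmp1 stood further down. Itgbl1 was most like Cilp (r = 0.998), a matrix protein of cartilage, Kcnk1 (0.997) and Lpcat4 (0.997), with Sp7 at place 1399 and Dmp1 at place 2262. Lipc was most like Magi2 (0.996), Cbfb (0.995), the partner of Runx factors, and Gm18541 (0.993), with Sp7 at place 344 and Dmp1 at place 528. Ptpn20 was most like Lcp1 (0.998), Col24a1 (0.996), a collagen of forming bone, and Zfp281 (0.995), with Sp7 at place 385 and Dmp1 at place 674. Sstr2 was most like Amz1 (0.993), Rac1 (0.990) and Mme (0.988), with Sp7 at place 1308 and Dmp1 at place 1125. Gm48898 was most like Cryzl1 (0.992), Plppr2 (0.992) and Ano6 (0.991), with Sp7 at place 666 and Dmp1 at place 747. Foxc1 stood ahead of Sp7 and Dmp1 for Itgbl1 (place 69), Ptpn20 (116), Lipc (159), Gm48898 (180) and Sstr2 (266). It stood behind both for Mamdc2 (453) and Wdr72 (764). With the group means removed, the correlation with Sp7 was 0.945 for Wdr72 and 0.501 for Mamdc2 and lay between -0.641 and -0.14 for the other 5. The Wdr72 value rests on 9, 5 and 15 fragments in the mutants, where the place of E433 was not resolved. With the RSEM TPM in place of CPM, 0 or 1 of the 3 genes most like each member were shared. For Wdr72 it was 0, so Sp7 was no longer among its 3.

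The nearest genes were examined to see whether the chromosomal surroundings moved with the members. Of 36 genes that overlap a member or are 1 of the 2 nearest tested genes on either side, 31 were tested, 0 were called by edgeR (7 at an unadjusted p under 0.05, beside 10.6% of all tested genes) and 2 by DESeq2 (3.57% of all). The 2 were Slc39a11 beside Sstr2 and Tmtc4, 675.9 kb from Itgbl1, which had 23.9 CPM in controls and 17.5 CPM in mutants (log2 fold change -0.45, adjusted p = 0.370 from edgeR and 0.0645 from DESeq2). The median log2 fold change of the 31 was -0.09, and in 6 of them the mutants lay below all controls, beside 8.21% of all tested genes. Beside Lipc, Adam10, a membrane protease 17.9 kb away, had 161 CPM in controls and 141 CPM in mutants (log2 fold change -0.20), and Aldh1a2, a retinoic acid synthesis enzyme, had 11.6 and 12 CPM. Slc39a11, the zinc transporter gene whose intron holds Sstr2, had 21.6 CPM in controls and 15.8 CPM in mutants, with the mutants below all controls (log2 fold change -0.45, adjusted p = 0.389 from edgeR and 0.0950 from DESeq2). Smc5 beside Mamdc2 had a log2 fold change of -0.17. Beside Wdr72, Fam214a, also named after its values were seen, had 14.2 CPM in controls and 26.4 CPM in mutants with overlapping groups (log2 fold change 0.90, adjusted p = 0.468 from edgeR), and Arpp19 had a log2 fold change of 0.11. Beside Ptpn20, Mapk8 had a log2 fold change of -0.03.

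Neighbours that were low in the mutants lay near Ptpn20, Gm48898 and Itgbl1, and these were singled out after their values were seen. Gdf10, a ligand of the TGF-beta family whose gene lies 282.8 kb from Ptpn20, had 53.7 CPM in E420, 79.3 in E434 and 53.7 in E435, against 21.1 in E423, 52.5 in E433 and 22.6 in E440. Its groups were narrowly apart, E434 and E433 were the highest of their groups, and the log2 fold change was -0.96 (SE 0.381, adjusted p = 0.459 from edgeR and 0.127 from DESeq2). Gdf7, a BMP family ligand whose gene lies 4.22 kb from Gm48898 on the same strand, had 0.102 CPM in E420, 0.441 in E434 and 0.577 in E435, against 0.0481, 0.0464 and 0.0867 CPM in E423, E433 and E440. Its groups did not overlap, but the counts were 4, 20 and 28 against 2, 2 and 4, and the log2 fold change of -2.58 (SE 0.731) had an adjusted p of 0.381 from edgeR. Hs1bp3 and Ldah, on either side of that pair, had log2 fold changes of 0.04 and 0.20. Near Itgbl1, Fgf14 had 0.666 CPM in controls and 0.277 CPM in mutants with overlapping groups (log2 fold change -1.24, adjusted p = 0.511 from edgeR), and the pseudogene Gm15422 had 2, 7 and 6 counts in controls and 0, 0 and 1 in mutants.

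**Figure D5:**
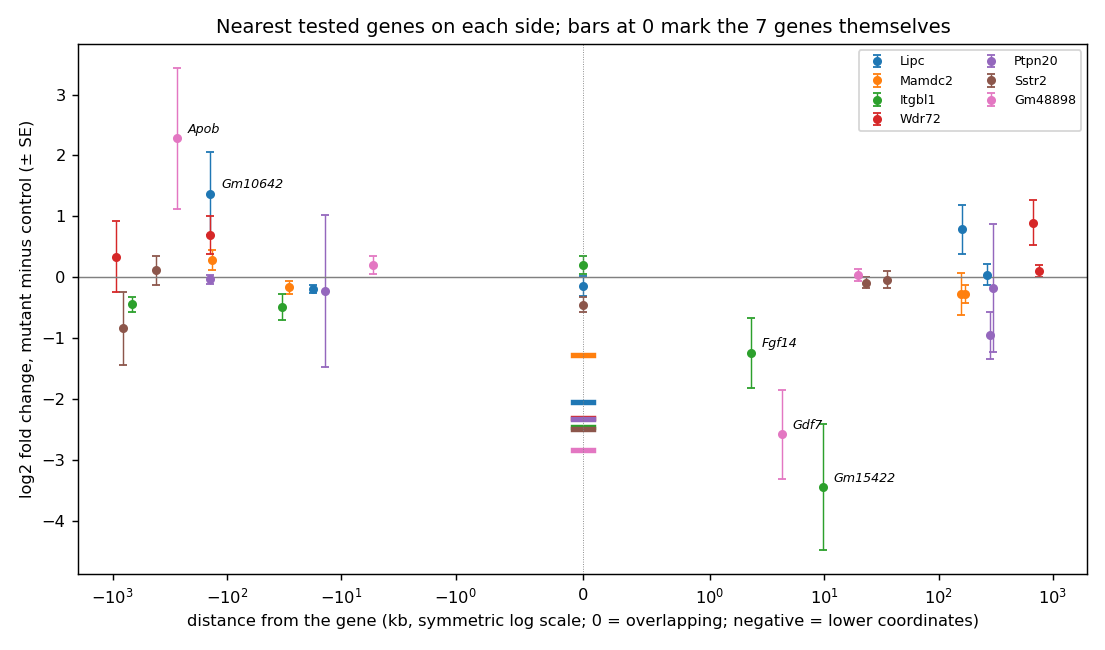
Log2 fold change, mutant minus control, ± SE (vertical axis) of the nearest tested genes against their distance from each of the 7 genes in kb (horizontal axis, symmetric log scale, 0 for overlapping genes), coloured by the gene they neighbour, with the 7 genes as bars at 0. Most neighbours lie near 0; Gdf7 (-2.58) and Gm15422 (-3.45) are low with large errors.

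All 7 genes were lower in the mutants with and without the libraries that stood apart, a direction that the rule had fixed in advance. By point values the amounts differed most for Wdr72 and Sstr2, but this was not resolved. Their E433 values rest on 5 and 7 fragments. The counting intervals of E433 against the other mutants, -2.98 to 0.18 and -0.997 to 2.26, both include 0. Comparing E433 with E434, both rich in cartilage RNA, the log2 ratio in CPM was -1.95 for Lipc, -1.54 for Mamdc2, -2.63 for Itgbl1, -3.32 for Wdr72, -2.48 for Ptpn20, -1.76 for Sstr2 and -2.85 for Gm48898. Comparing the mean of E423 and E440 with that of E420 and E435, it was -2.12, -1.14, -2.30, -1.97, -2.25, -2.91 and -2.83 in the same order. Wdr72 differed more between E433 and E434, as did Sp7 (-1.92 against -1.07) and Dmp1 (-3.42 against -2.26), and Sstr2 differed more between the other 4 libraries, as did Foxc1 (-1.94 against -2.74). Foxc2, the other targeted gene, went the other way from Foxc1 (-2.09 against -1.91). Each of these single-library ratios has no replicate check.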

How the data were processed

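RNA-Seq counts of 6 rib cage libraries were analysed. Per the labels and methods, the authors made stranded mRNA libraries, sequenced both ends, aligned the reads to GRCm38 with HISAT2 2.1.0 and deposited the counts that featureCounts 1.6.0 made for each gene; per the file headers both ends were counted separately, without strand and without multi-mapping reads. The authors also deposited, per sample, expected counts (fragments, shared among genes where they map to several) and TPM from STAR 2.7.6 and RSEM 1.2.31. The authors' own DESeq2 comparison tables were not used, nor were 12 columns of per-sample values in them. Symbols of 55227 of 55487 gene IDs came from an earlier GENCODE release on the same build.

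Genes with a sum of 10 counts or more entered edgeR 4.0.16 in R 4.3.3 (TMM factors, then glmQLFit and glmQLFTest), with Benjamini-Hochberg adjustment over all 26596 and limits of 0.1 on the adjusted p and 1 on the log2 fold change. Log2 CPM used a prior count of 2, which makes the falls of low genes smaller. Their differences to Sp7 are therefore understated, while those to Dmp1 lie higher than with a smaller prior count. For Gm48898 the difference to Dmp1 was -0.19 with a prior count of 0.5 and -0.02 with 2. The 7 genes, the family lists and the marker lists were chosen with earlier results of these data known. Named were the 7 genes, Sp7, Dmp1, the targeted genes, list genes past the limit or the 2 highest in controls, the nearest genes, and the 3 most alike by correlation. RSEM fragments, rounded, gave exact Poisson intervals and exact binomial (Clopper-Pearson) intervals for ratios, which cover counting error only, since there are no molecular identifiers. Replicates are embryos whose numbers do not pair the groups. Alternatives were DESeq2's size factors and its Wald test (version 1.42.0), a robust step, other filters, RSEM counts rounded to whole numbers, other limits, other prior counts and leaving out each library. Leaving out both E434 and E433, and summing E420 with E435 and E423 with E440, were added after the values were seen. The steps were tested on simulated data.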

Additional observations from a re-analysis of the deposited data

How the results depend on the processing

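No paired analysis was possible because the labels give no numbers shared between the groups, and the litters of the embryos are not given in the sources used here. The fitted log2 fold changes of the 7 genes moved by less than the spread between embryos in all 91 alternatives. They ranged from -3.01 (Gm48898) to -1.14 (Mamdc2). They kept their sign, which the rule had largely set in advance by placing every mutant library below every control library. The number of genes called lower in mutants, 8, was 122 with DESeq2's Wald test, 16 with the robust step, 15 with no low-count filter, 5 with RSEM expected counts, 14 with no fold limit and 0 at an adjusted p under 0.01. Leaving out 1 library at a time gave 0 to 353, the lowest without E420, E435, E423 or E440 (1450 to 1698 genes at an unadjusted p under 0.05) and the highest without E433. Without both E434 and E433 it was 648, and with the close libraries summed it was 0 (769 genes at an unadjusted p under 0.05, from 2 libraries per group). All 7 genes were called with DESeq2, without E433 and without both E434 and E433, and 0 with the close libraries summed, but these genes were chosen on this contrast. Of the family, pathway and neighbour genes 1 was called, against 9 with DESeq2, 45 without both E434 and E433, and 0 with RSEM expected counts, with the close libraries summed or at an adjusted p under 0.01; leaving out 1 library gave 0 to 17. The cause of these shifts was not tested.

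The ratios to Sp7 and Dmp1 moved by more than their spread in 3 of 112 alternatives, all with RSEM TPM, where the mutant minus control difference to Sp7 was -0.38 for Wdr72 (-0.94 in CPM) and -0.23 for Ptpn20 (-0.70 in CPM), and that of Wdr72 to Dmp1 was 1.01 (0.35 in CPM). The differences of Mamdc2 to Sp7 and of Itgbl1, Sstr2 and Gm48898 to Dmp1 changed sign in 8 of the 112, from -0.52 to 0.59. The most alike genes were not stable: with group means removed 0 of the 3 were shared for each of the 7 genes, and with RSEM TPM 0 or 1. Fewer than 10 fragments per mutant library limit Ptpn20, Sstr2 and Gm48898.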
